A study of Mus musculus with 2 samples.

Results

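AP-1 is a family of transcription factors that bind DNA as dimers, and 9 of its genes were followed here through single cells of the mouse cribriform plate region: Jun, Junb, Jund, Fos, Fosb, Fosl2, Atf3, Maff and Batf. They are 9 of the 31053 genes counted and were chosen by name, with earlier results of these data known. The values come from every cell with at least 200 detected genes and at most 20% mitochondrial transcripts. All mice were wild-type C57BL/6J females of 10 weeks, and the tissue took in the olfactory bulbs and part of the nasal mucosa. One group was healthy. The other had experimental autoimmune encephalomyelitis (EAE), in which the immune system is primed against myelin, a model of multiple sclerosis. Each group was a pool of 5 mice and is therefore 1 sample. Cells were sorted as podoplanin-positive, CD31-positive, CD45-negative and free of a dead-cell dye, a gate aimed at lymphatic endothelium. The cells of both groups lie in one count matrix under barcode suffixes 1 and 2, called library 1 and library 2 here. Since no source used here ties a suffix to a group, EAE was not compared with healthy mice. With 1 library a side there was no replicate and no p-value, and each difference below compares these libraries, not the conditions.

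JUN proteins (Jun, Junb, Jund) pair with one another or with FOS proteins (Fos, Fosb, Fosl2), and the dimers bind the DNA motif TGACTCA. Most of these genes are immediate early genes: growth factors, inflammatory signals and physical stress, the handling of tissue included, switch them on within minutes, largely through MAP kinases. Atf3 is a stress-induced relative that can pair with JUN proteins, Maff is a small MAF protein without an activation domain of its own, and Batf acts with JUN proteins, above all in lymphocytes and dendritic cells.

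The 250 bases before the RefSeq transcription start (build GRCm38.p6) are shown for Jun, Fos, Atf3 and Junb, because these genes carried most of the AP-1 transcripts and varied together over cells to very different degrees. The Jun window is chr4:95052223-95052472 on the minus strand, and the Fos window is chr12:85473640-85473889 on the plus strand. The Atf3 window is chr1:191183334-191183583 and the Junb window is chr8:84978749-84978998, both on the minus strand. Each is written 5′ to 3′ along its gene, and capitals mark the motif matches described after them.
Jun: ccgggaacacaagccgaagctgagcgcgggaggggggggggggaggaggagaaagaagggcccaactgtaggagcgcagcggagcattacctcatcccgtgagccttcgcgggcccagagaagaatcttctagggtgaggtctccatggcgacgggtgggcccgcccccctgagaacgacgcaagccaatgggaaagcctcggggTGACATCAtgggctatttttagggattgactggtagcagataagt
Fos: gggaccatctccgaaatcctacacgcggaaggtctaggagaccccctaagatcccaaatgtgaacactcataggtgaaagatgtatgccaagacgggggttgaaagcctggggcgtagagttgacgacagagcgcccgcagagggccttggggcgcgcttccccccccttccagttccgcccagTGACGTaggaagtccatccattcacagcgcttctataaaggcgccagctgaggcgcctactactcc
Atf3: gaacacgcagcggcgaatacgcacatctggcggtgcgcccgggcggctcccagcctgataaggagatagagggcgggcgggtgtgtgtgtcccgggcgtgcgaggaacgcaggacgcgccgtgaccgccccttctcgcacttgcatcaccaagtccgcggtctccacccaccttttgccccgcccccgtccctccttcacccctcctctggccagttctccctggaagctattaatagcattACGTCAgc
Junb: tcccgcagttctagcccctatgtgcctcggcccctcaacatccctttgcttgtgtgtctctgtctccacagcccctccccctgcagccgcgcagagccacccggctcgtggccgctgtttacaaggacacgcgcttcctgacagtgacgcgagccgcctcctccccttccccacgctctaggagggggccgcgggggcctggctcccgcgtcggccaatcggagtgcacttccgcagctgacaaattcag

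Both strands of these windows were searched for 4 motifs: TGACTCA, the variant TGACATCA, TGACGT (the core of the site bound by CREB and ATF factors), and the CArG box bound by serum response factor, SRF. The Jun window held TGACATCA at position -45, counted from the transcription start to the first base of the match. TGACGT was found at -66 in the Fos window and, on the opposite strand, at -8 in the Atf3 window. The Junb window held none of the 4. RefSeq windows were found for all 9 genes, with 3 starts for Maff. Among the others, Batf had TGACGT at -98, 1 Maff window had it as a palindrome read on both strands, and another had TGACATCA at -45. No window of the 9 genes held TGACTCA or a CArG box. Sequence further upstream or past the start was not searched. The absence of a motif here therefore does not show that a gene, Fos included, lacks such a site. Of 32851 RefSeq windows of the same length, 4.46% held TGACTCA, 2.93% TGACATCA, 6.47% TGACGT and 1.47% a CArG box. A match describes letters and is not a measured binding site.

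Library 1 kept 3406 of 3838 barcodes and library 2 kept 1922 of 2434. Medians per kept cell were 7334 and 9782.5 UMIs (unique molecular identifiers, which count captured molecules), and the median mitochondrial share was 1.54% and 3.74%. Against the label, nearly all cells carried transcripts of microglia, the macrophages that reside in the brain. In library 1, 95.4% of cells had at least 5 of 7 microglia markers, and in library 2, 85.1% did. The 7 markers summed to 17504 and 9177 CPM (counts per 1000000 UMIs). The 6 lymphatic endothelial markers with a row in the matrix summed to 18.1 and 6.9 CPM. The libraries shared 8 barcodes, 7 of which were kept in both.

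AP-1 transcripts made up a large part of the captured RNA of these cells, and more of it in library 1. The 9 genes gave 1036085 of 25766058 UMIs in library 1 (4.02%) and 242035 of 20282053 in library 2 (1.19%), a 3.37-fold difference. Of the 9 genes, 7 were more than 2-fold lower in library 2, and the exceptions were Fosl2 and Batf, the 2 scarcest. Across all 13891 genes with at least 20 UMIs over both libraries, 1.92% were more than 2-fold lower in library 2 and 2.76% were more than 2-fold higher. The median log2 ratio of library 2 over library 1, computed with 10 CPM added to both, was -1.49 for the 9 genes and 0.02 for all genes. With 10 CPM added, only a gene above 10 CPM in library 1 can be called lower. All 9 members were above it, but scarce genes among the 13891 were not. The 1.92% is thus not matched for level and can overstate the contrast with the 9 genes. CPM and UMI levels are not divided by transcript length, since a UMI counts a molecule, and how evenly molecules of different genes were captured was not tested.

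Jun, the founding JUN gene, had the highest level of the 9 in library 1, with 10543.5 CPM, and 2958 CPM in library 2. It ranked 4 among all genes in library 1 and 37 in library 2. Its level was 3.56-fold higher in library 1. Junb, whose protein can restrain Jun as well as activate genes, stood at 6125 CPM in library 1 and 2272 CPM in library 2, a 2.70-fold difference. Jund, the JUN gene with the steadiest expression in many tissues, stood at 4902 and 1442 CPM and was 3.4-fold higher in library 1. Together the JUN genes came to 21571 and 6672 CPM, or 53.6% and 55.9% of all AP-1 UMIs.

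Among the FOS genes, Fos was at 9076 CPM in library 1 and 3606 CPM in library 2. It had the smallest fold difference of the 7 genes called lower, 2.52, and the highest level of the 9 in library 2, where it ranked 28 among all genes. Fosb, whose protein can take the place of Fos in the dimer, was at 1505 and 528 CPM, a 2.85-fold difference. Fosl2, which codes for the later-induced subunit Fra-2, was scarce in both libraries, at 31.9 CPM (822 UMIs; exact 95% Poisson interval 29.8 to 34.2 CPM) and 17.6 CPM (356 UMIs; 15.8 to 19.5 CPM). These intervals cover counting error only. The FOS genes came to 26.4% of AP-1 UMIs in library 1 and 34.8% in library 2.

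Atf3 showed the widest gap, with 7759 CPM in library 1 and 1040 CPM in library 2, 7.46-fold apart. It was the third of the 9 genes in library 1, at rank 12 of all genes, and the fifth in library 2, at rank 153. Maff came next in fold, with 255 CPM (6558 UMIs) against 51.9 CPM (1052 UMIs), 4.91-fold apart. Batf had no such difference. Its level was 14.0 CPM in library 1 (361 UMIs; interval 12.6 to 15.5 CPM) and 17.1 CPM in library 2 (347 UMIs; 15.4 to 19.0 CPM), so the 2 intervals overlapped narrowly. In library 1 the order of the levels was Jun, Fos, Atf3, Junb, Jund, Fosb, Maff, Fosl2 and Batf. In library 2 it was Fos, Jun, Junb, Jund, Atf3, Fosb, Maff, Fosl2 and Batf, and there only Fosl2 and Batf had overlapping intervals.

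**Figure D1:**
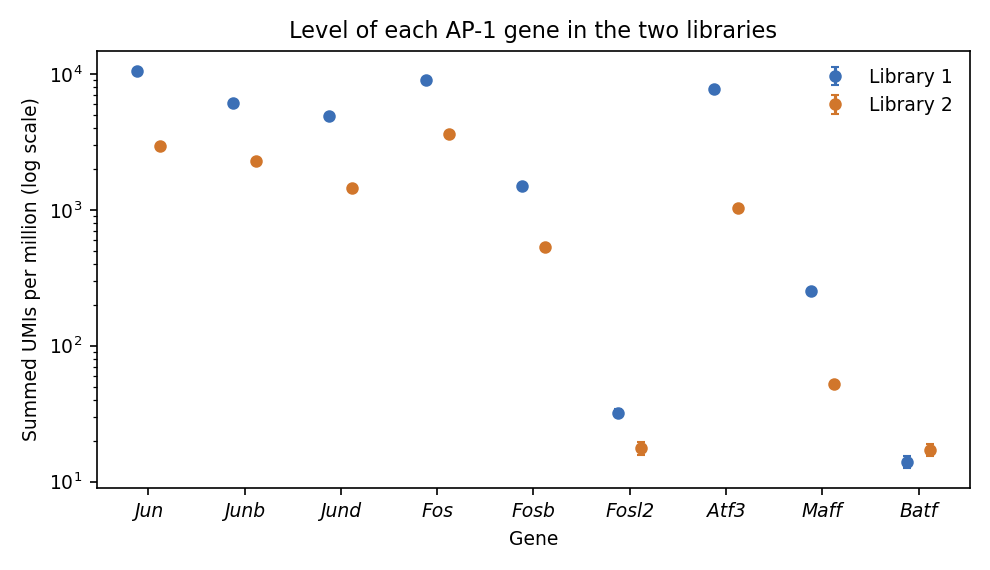
Summed level of each AP-1 gene (CPM, log axis) in library 1 (blue) and library 2 (orange), with exact 95% Poisson intervals that are mostly smaller than the points. Atf3 has the widest gap, 7759 against 1040 CPM, and Batf is the one gene with a higher point in library 2, 17.1 against 14.0 CPM.

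Other readouts moved with the libraries. In cells with at least 5 of 7 microglia markers, 3249 and 1635 cells, the AP-1 share was 4.10% and 1.27% and its log2 ratio -1.69, against -1.75 in all kept cells. Within each library the AP-1 share was lower in cells with more mitochondrial transcripts. It went from 4.75% in the 25% of cells with the smallest mitochondrial share to 3.15% in the 25% with the largest in library 1, and from 1.41% to 0.87% in library 2. The cells of library 1 with most mitochondrial transcripts, at a median of 2.86%, thus held more AP-1 than the cells of library 2 with fewest, at a median of 1.94%. Across 4 equal classes of sequencing depth the share ran from 3.64% to 4.23% in library 1 and from 1.07% to 1.37% in library 2. What part RNA quality or the lower microglia marker level of library 2 had in the difference was not tested.

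The high AP-1 level was spread over nearly all cells of library 1. The median cell gave 3.84% of its UMIs to the 9 genes, with quartiles of 2.69% and 5.02% and a highest value of 14.3%. In library 2 the median was 1.07%, the quartiles were 0.57% and 1.65%, and the highest value was 8.24%. Of the cells of library 2, 99.2% lay below the median of library 1, while 4.52% of the cells of library 1 lay below the median of library 2. No AP-1 UMI at all was found in 16 cells of library 1 (0.47%) and 47 of library 2 (2.45%). The distributions overlapped mainly between 1% and 3%.

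**Figure D2:**
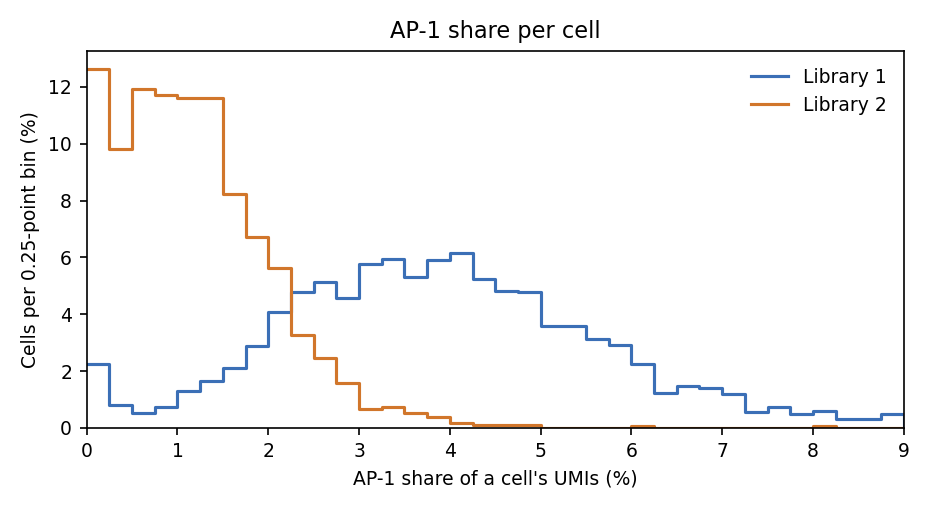
Share of a cell's UMIs given to the 9 AP-1 genes (x axis, %) against the percentage of the cells of each library in bins of 0.25 points (y axis), for 3406 cells of library 1 (blue) and 1922 of library 2 (orange). Library 2 piles up below 2%, with a median of 1.07%, and library 1 is spread widely around a median of 3.84%.

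Detection per cell was compared after each cell with at least 2000 UMIs had been thinned at random to exactly 2000, which left 3259 cells of library 1 and 1895 of library 2 and left out 147 and 27. Jun then had a UMI in 99.0% and 86.2% of cells (98.4% and 93.2% on all UMIs). Its thinned count was 20 UMIs in the median cell of library 1, with deciles of 7 and 38, and 4 UMIs in library 2, with deciles of 0 and 14. The lowest decile of library 1 thus lay above the median of library 2. Fos was found in 97.6% and 86.8% of thinned cells (97.8% and 91.8% on all UMIs), with medians of 16 and 6 UMIs and deciles of 3 and 37 against 0 and 16.

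Atf3 was seen in 95.6% of thinned cells of library 1 and 60.3% of library 2 (96.8% and 79.7% on all UMIs), and its thinned median was 14 UMIs and 1 UMI. Maff had a UMI in 34.5% and 8.13% of thinned cells, or 66.1% and 30.7% on all UMIs. Junb was seen in 97.7% and 86.4%, Jund in 98.2% and 80.4%, and Fosb in 80.1% and 45.9%. Fosl2, at 6.29% and 3.48%, and Batf, at 2.58% and 2.69%, were near the limit of what 2000 UMIs can show. On all UMIs Batf was seen in 9.25% of cells of library 1 and 15.9% of library 2, whose cells were sequenced deeper, while the thinned shares lay side by side.

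The few cells of other kinds held less AP-1. Barcodes with at least 3 markers of olfactory sensory neurons and at most 2 of microglia numbered 18 and 41, and their AP-1 share was 0.27% and 0.15%. Atf3 was seen in 50% of the 18 (median 8433 UMIs per barcode) and 2.4% of the 41 (median 11047 UMIs), both below the shares in kept cells. Droplets also take up free RNA: among barcodes under 200 genes, with medians of 659 and 1556.5 UMIs, 28.0% and 3.7% had an Atf3 UMI, at 397 and 18.9 CPM. The median mitochondrial share of those barcodes was 76.4% and 94.5%, so their CPM is no clean measure of free RNA. The Atf3 level of the neuron-marked barcodes, 108 and 1.95 CPM, lay below theirs. It is not counted as expression here, and its source was not tested. In these neuron-marked barcodes Jund was the highest of the 9 genes, at 1024 and 814 CPM, against 578 and 220 CPM for Fos. Barcodes with markers of olfactory ensheathing glia, the glia that wrap olfactory nerve fibres, numbered 12 and 24 and held 0.88% and 0.45% of their summed UMIs. The median barcode of these held only 0.26% and 0.10%. Cells with at most 2 of 7 microglia markers held 0.69% (100 cells) and 0.25% (110 cells) in all, at medians of 1121 and 6046 UMIs. Their median share per cell was 0.27% and 0.11%. A single barcode, in library 1, had markers of lymphatic endothelium, at a share of 1.73%. Barcodes left out by the filter held little AP-1: 0.22% and 0.09% in those over 20% mitochondrial, and 0.18% and 0.02% in those under 200 genes.

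The make-up of the AP-1 pool differed as well as its size. Jun gave 26.2% of AP-1 UMIs in library 1 and 24.8% in library 2, and Jund 12.2% and 12.1%, so these shares were close. Fos gave 22.6% and 30.2% and Junb 15.2% and 19.0%, while Atf3 made up 19.3% in library 1 and 8.72% in library 2. Fosb gave 3.74% and 4.43%, and Fosl2, Maff and Batf together under 1% in each. Per cell, the FOS genes were a median of 31.6% of FOS plus JUN transcripts in library 1 (quartiles 20.9% and 42.9%) and 38.2% in library 2 (27.9% and 48.1%). These medians are over the 3104 and 932 thinned cells with at least 20 such UMIs, which leaves out the cells with little AP-1, most of them in library 2.

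Cells with the same AP-1 load still differed in make-up between the libraries, in load classes that were set after the data had been seen. Among cells with 2% to 3% of their UMIs in AP-1, 633 in library 1 and 248 in library 2, Atf3 was 20.9% of AP-1 UMIs in library 1 and 8.36% in library 2. Fos was 18.6% and 30.6% in the same cells. Jun, at 25.6% and 26.2%, Junb, at 16.3% and 17.5%, and Jund, at 13.9% and 12.1%, lay close together. The Atf3 gap was also present from 1% to 2%, at 20.5% and 9.38%, and from 3% to 4%, at 20.5% and 6.6%, the latter with 44 cells in library 2. Below 1% it was narrow, at 10.3% and 8.46%, and there Jund was 23.8% of the AP-1 UMIs of library 1 and 13.3% of those of library 2. That class held unlike cells: 147 in library 1, at a median of 3586 UMIs, and 886 in library 2, at a median of 9743.5 UMIs. What part depth or cell type had in the values below 1% was not tested.

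**Figure D3:**
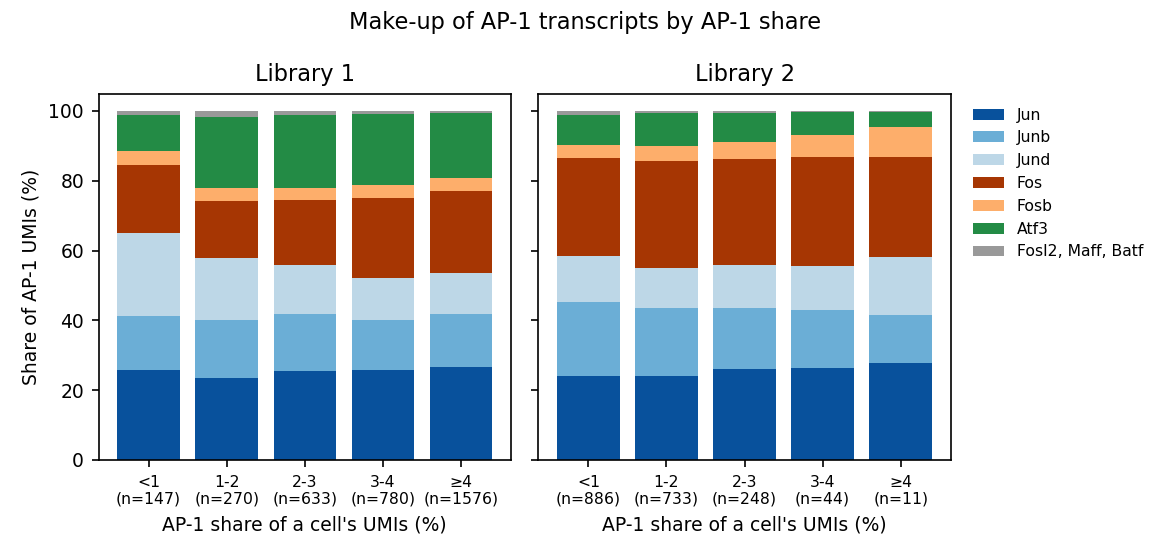
Share of AP-1 UMIs from each gene (y axis, stacked to 100%) in cells grouped by their AP-1 share of UMIs (x axis, with the number of cells), for each library. Between 2% and 3%, Atf3 (green) fills 20.9% of the bar in library 1 and 8.36% in library 2, and Fos (dark orange) 18.6% and 30.6%.

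Cells of 1 library varied beyond counting noise in most of the 9 genes. The variance of thinned counts over their mean, which is 1 for counting noise alone, was 9.51 in library 1 and 5.71 in library 2 for Fos, 8.81 and 3.71 for Junb and 7.89 and 5.67 for Jun. It was 7.48 and 3.16 for Atf3, 4.92 and 3.55 for Jund and 2.96 and 2.92 for Fosb. Maff stood at 1.40 and 1.21. Batf, at 1.09 and 1.01, and Fosl2, at 1.08 in library 1, lay close to counting noise. For the sum of the 9 genes the ratio was 16.3 and 12.7, and the tenth of cells with most held 18.8% of AP-1 UMIs in library 1 and 24.9% in library 2.

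Members of the family varied together, and more closely in library 2. Correlations were computed over 3259 and 1895 thinned cells, with counting noise taken off both genes, for the 15 pairs of the 6 genes with at least 0.2 UMI per thinned cell in both libraries. The cells of 1 library share its preparation, so the coefficients describe these cells and carry no test. The median coefficient was 0.34 in library 1, with a range of 0.04 to 0.56, and 0.53 in library 2, with a range of 0.16 to 0.73. All 15 pairs had the higher value in library 2. The 21 pairs that involve Fosl2, Maff or Batf were left uncorrected, because each of these genes missed that limit in at least 1 library. Maff missed it in library 2 only, with 0.50 and 0.09 UMI per thinned cell. The uncorrected coefficients of the 21 pairs ran from -0.04 to 0.19 and from -0.03 to 0.11. Those of the 15 pairs, also uncorrected, ran from 0.04 to 0.45 and from 0.11 to 0.55. Junb and Maff had the 0.19 of library 1, and counting noise lowers such values most for scarce genes.

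Jun varied with every other abundant member, most with Jund (0.53 in library 1 and 0.71 in library 2) and Fos (0.48 and 0.61). Fos and Fosb, neighbours in function, had the highest coefficient of library 1, 0.56, against 0.62 in library 2. Jund and Fosb had the highest of library 2, 0.73, against 0.45 in library 1. Of the tenth of cells with most Jund, 43.2% (82 of 190) were also in the tenth with most Fosb in library 2, and 22.1% (72 of 326) in library 1. Atf3 was the loosest member: its coefficient was 0.04 and 0.25 with Jund, 0.07 and 0.16 with Fosb, 0.27 and 0.40 with Jun, and 0.34 and 0.43 with Fos.

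Junb and Fos were nearly unrelated in library 1 and closely related in library 2. Their coefficient was 0.09 and 0.61, the widest gap of the 15 pairs, and the rank correlation was 0.09 and 0.54. In library 1 the tenth of cells with most Junb and the tenth with most Fos shared 43 of 326 cells (13.2%), and in library 2 they shared 58 of 190 (30.5%). Junb also had low coefficients with Atf3 (0.10) and Fosb (0.15) in library 1, where library 2 had 0.47 and 0.43, but it varied with Jun (0.38 and 0.53) and Jund (0.43 and 0.51) in both. In the 326 cells of library 1 with most Junb, mean Junb was 2.92 times that of all cells and mean Fos 1.15 times. The cells with most Fos had 2.47 times the Fos and 1.09 times the Junb. In library 2 the cells with most Junb had 2.96 times the Junb and 1.79 times the Fos. Restricting both libraries to cells with at least 5 of 7 microglia markers gave 0.09 and 0.53 for this pair. The dendritic cell list, of which Fscn1 is one gene, summed to 287 and 38.8 CPM. Leaving out the 1131 and 54 cells with at least 3 Fscn1 UMIs, a choice made after seeing the data, gave 0.12 and 0.61. These cells are not taken to be dendritic cells, since 95.4% of kept cells of library 1 had at least 5 of 7 microglia markers. On log-normalised counts without thinning the values were 0.26 and 0.77.

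**Figure D4:**
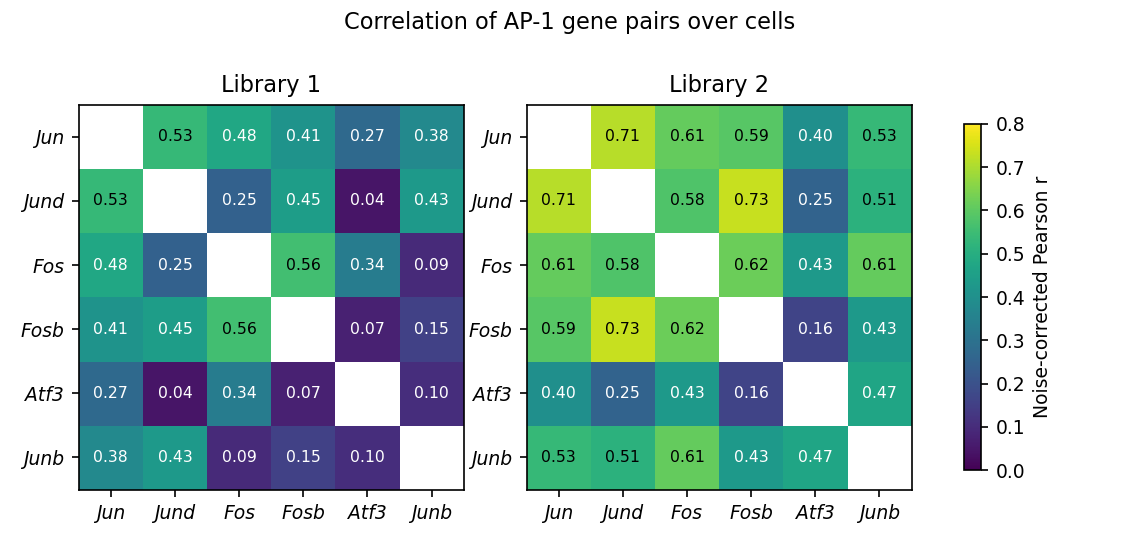
Correlation over cells of each pair of the 6 abundant AP-1 genes (Pearson coefficient with counting noise removed, colour scale from 0 to 0.8), in 3259 cells of library 1 and 1895 of library 2. The Junb row of library 1 is dark for Fos (0.09), Fosb (0.15) and Atf3 (0.10), where library 2 has 0.61, 0.43 and 0.47.

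Of the 10 genes whose thinned counts followed the AP-1 sum most closely, 6 in library 1 and 7 in library 2 were on the list of other immediate early genes described further on. That list holds 16 genes, against 1502 and 1418 genes ranked. It was chosen with earlier results of these data known, so the overlap is a description only. Among 1502 genes with at least 0.2 UMI per thinned cell in library 1, the highest rank correlations were those of Zfp36 (0.54), whose protein speeds the decay of cytokine mRNAs, Egr1 (0.49), a zinc-finger transcription factor, Dusp1 (0.46), a phosphatase that switches off MAP kinases, and Btg2 (0.46), a growth-restraining gene. Ier2, Rhob, Klf6, Ier5 and Ccnl1 followed at 0.37 to 0.30. Among 1418 genes in library 2 the highest included Dusp1 (0.63), Egr1 (0.61), Zfp36 (0.61), Btg2 (0.59) and Rhob (0.56), with Klf2, Klf6, Ier5 and Ier2 at 0.49 to 0.47. The 2 lists of 10 shared 9 genes. The median over all genes was -0.01 and 0.02. At the other end stood the complement genes C1qb (-0.26) and C1qa (-0.24) in library 1, and the actin-binding gene Tmsb4x (-0.33) and the mitochondrial gene mt-Atp6 (-0.29) in library 2.

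Single members had different companions in library 1. Fos followed Dusp1 (0.58), Zfp36 (0.46) and Egr1 (0.41), whereas Junb followed Ier5 (0.64) and Ier2 (0.51). Atf3 had the chemokine gene Ccl4 (0.34), Zfp36 (0.30) and Rgs1 (0.29), a regulator of G-protein signalling. Jun had Btg2 (0.44), Egr1 (0.42) and Zfp36 (0.41). Maff had Nfkbia (0.22), which codes for the inhibitor of NF-kappaB and Gadd45b (0.19). In library 2, Fos again had Dusp1 (0.60), Zfp36 (0.54) and Egr1 (0.54), and Junb had Zfp36 (0.55) and Egr1 (0.53). Atf3 there had Egr1 (0.42), Rhob (0.42) and Klf2 (0.41).

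Genes around AP-1 were read as lists, each described by its members tested, its median log2 ratio of library 2 over library 1 and its rank correlation with the AP-1 sum over thinned cells. Of 32 other AP-1 and bZIP genes tested, 1 was more than 2-fold lower in library 2 with 10 CPM added, Ddit3, and 2 were more than 2-fold higher, with a median log2 ratio of -0.12. Fosl1, the remaining FOS gene, was scarce, at 5.47 CPM (141 UMIs) and 0.44 CPM (9 UMIs), with a log2 ratio of -0.57. Without the added 10 CPM it was 12.3-fold apart, a value that rests on the 9 UMIs and is not ranked against the members. Hlf, a bZIP gene of circadian output, was 5.15-fold apart on the same terms, from 157 and 24 UMIs. Cebpb, which codes for a factor of myeloid cells, stood at 676 and 689 CPM and Cebpa at 498 and 469 CPM. The higher ones were Atf5, at 19.3 and 88.8 CPM, and the interferon-inducible Batf2, at 1.09 and 17.0 CPM. Over cells this list followed the AP-1 sum at 0.14 and 0.34.

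Among 17 MAP kinases and their activators, 13 had a log2 ratio below 0 and the median was -0.24, against 0.02 for all genes. More than 2-fold lower with 10 CPM added was 1 of them, the p38 activator Map2k3, at 80.0 and 34.5 CPM. Mapk14, which codes for p38 itself, was also lower in library 2, at 95.4 and 49.6 CPM. So were its activator Map2k6, at 16.0 and 7.89 CPM, and its substrate Mapkapk2, at 184 and 116 CPM. The shift was not particular to p38. Map3k8, Map2k1 and Mapk8 had log2 ratios of -0.70, -0.61 and -0.58, against -0.54 for Map2k6 and -0.62 for Mapkapk2. Map2k4 and Map3k5 were nearly level, at -0.04 and -0.07. The list of SRF, which drives Fos and Egr1, held its ELK cofactors and also MEF2 genes. It had no gene of 7 past 2-fold either way and a median of -0.24, the value of Mef2d. The highest of this list were genes of MEF2 factors, relatives of SRF, with Mef2a at 554 and 386 CPM and Mef2c at 657 and 448 CPM. Transcripts of the kinases followed the AP-1 sum at 0.01 and 0.09, and those of the SRF list at -0.03 and 0.21, from means of about 2 to 3 UMIs per thinned cell. The counts of the SRF list came mostly from Mef2a and Mef2c, while Srf itself stood at 30.0 and 20.2 CPM.

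Feedback regulators and other immediate early genes were in part lower in library 2, as AP-1 was. Of 9 MAP kinase phosphatases 4 were more than 2-fold lower in library 2 and none higher, with a median of -0.90. Dusp1 stood at 2732 and 1325 CPM, Dusp2 at 216 and 74.0 CPM and Dusp8 at 60.0 and 9.07 CPM. The list followed Fos at 0.58 and 0.62, and Junb at 0.06 and 0.46. Of 16 other immediate early genes 6 were more than 2-fold lower and 1 higher, with a median of -0.94. The list had the highest coefficients of all with the AP-1 sum, 0.68 and 0.77. Coefficients of lists are not corrected for counting noise, which lowers those of scarce lists most. This list averaged 46.8 and 23.0 UMIs per thinned cell, against 6.95 and 3.52 for the phosphatases. Egr1 stood at 4293 and 1808 CPM, Klf2 at 4003 and 1941 CPM, Klf4 at 832 and 213 CPM and Gadd45b, a stress sensor, at 508 and 50.8 CPM. Zfp36, at 2751 and 1873 CPM, was not past 2-fold.

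Stress lists were split. Of 11 heat shock genes 4 were more than 2-fold lower in library 2, among them Hspb1, at 211 and 9.22 CPM, and Hspa1a, at 501 and 55.5 CPM, whose near-identical copy Hspa1b can share its reads. The list median was -0.91, yet over cells the list followed the AP-1 sum at 0.20 and 0.10 only. The integrated stress response, which shares Atf4 and Ddit3 with the bZIP list, had 1 of 8 genes past 2-fold lower, Ddit3, at 246 and 102 CPM, and a median of -0.31. Atf4, which can induce Atf3, stood at 464 and 309 CPM. This list followed the AP-1 sum at 0.21 and 0.38.

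Inflammatory lists divided the members. Of 10 NF-kappaB genes 5 were more than 2-fold lower in library 2, with a median of -0.84, among them Nfkbia, at 2661 and 954 CPM, and Rel, at 545 and 135 CPM. In library 1 this list followed Junb at 0.51 and Fos at 0.04, and in library 2 at 0.44 and 0.31. Of 11 cytokine and chemokine genes 3 were more than 2-fold lower and 2 higher, with a median of 0.12. Ccl4, at 6384 and 2709 CPM, and the neutrophil attractant Cxcl2, at 304 and 11.6 CPM, were lower, and the monocyte attractants Ccl2, at 611 and 2625 CPM, and Ccl7, at 81.5 and 578 CPM, were higher. Atf3 was the member this list followed most closely, at 0.34 and 0.41.

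MHC class II and interferon genes went the opposite way between the libraries and were nearly unrelated to AP-1 over cells. All 4 MHC class II genes tested and all 10 type I interferon genes were more than 2-fold higher in library 2, with medians of 4.78 and 2.41. H2-Ab1, which codes for a chain of the antigen-presenting MHC class II molecule, stood at 72.7 and 2132 CPM, and the interferon-induced Isg15 at 36.9 and 301 CPM. The MHC class II sum followed the AP-1 sum at 0.05 and 0.13, and the interferon sum at -0.09 and -0.08. These coefficients are not corrected for counting noise. Per thinned cell the MHC class II sum averaged 1.44 and 29.4 UMIs and the interferon sum 0.56 and 4.07 UMIs, so the values of library 1 are limited by scarce counts. Split into 4 equal classes by MHC class II share, the cells of library 1 had an AP-1 share of 3.65% to 4.26% and those of library 2 of 0.97% to 1.27%. Within library 1, Junb stood at 4571 CPM in the lowest of these classes and 7622 CPM in the highest, and Fos at 8727 and 8247 CPM.

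**Figure D5:**
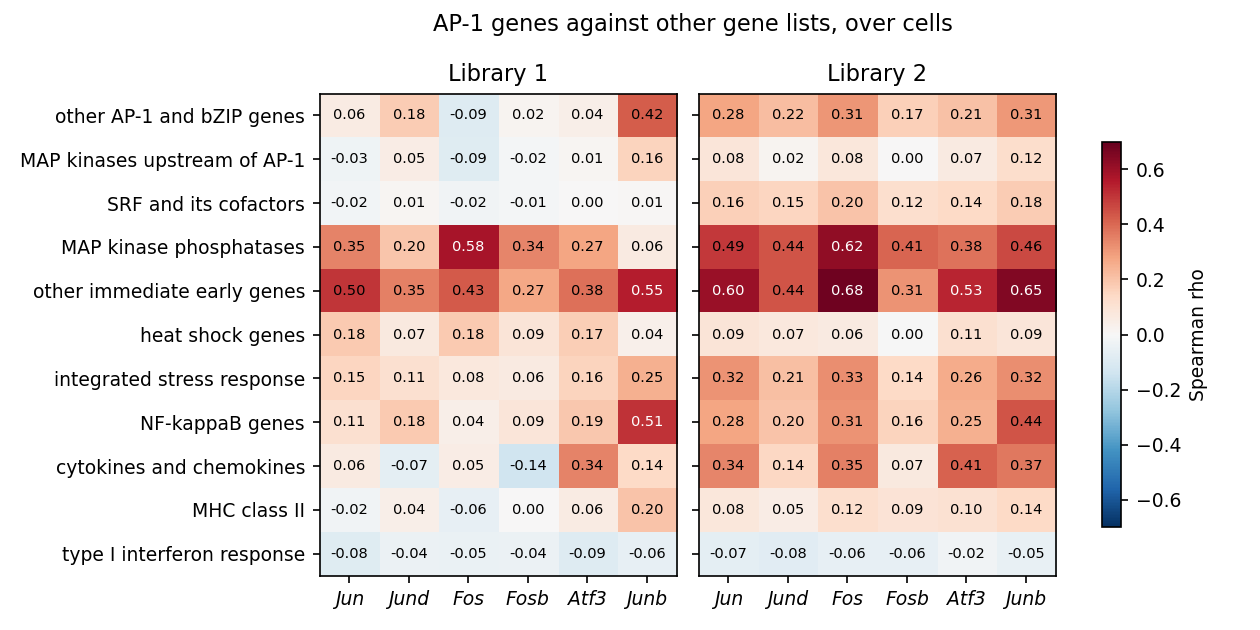
Rank correlation over thinned cells between each abundant AP-1 gene (columns) and the summed counts of each gene list (rows), in 3259 cells of library 1 and 1895 of library 2, on a colour scale from -0.7 to 0.7. In library 1 the MAP kinase phosphatases follow Fos (0.58) and hardly Junb (0.06), and the NF-kappaB genes follow Junb (0.51) and hardly Fos (0.04). The row named for SRF and its cofactors also holds genes of MEF2 factors.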

How the data were processed

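The authors deposited 1 matrix of raw UMI counts, whole numbers per gene and cell barcode, made with Cell Ranger 3.1.0 in its matrix format 2, per the file headers. bcl2fastq and UMI-tools stand in the submitters' processing notes too. For the genome build, the annotation, the library chemistry and any equalising of depth, the entry is: not given in the sources used here. Gene names are those of the feature list, where all 9 genes were found. The 9 genes and all gene lists were chosen with earlier results of these data known. Named genes were the 9 members, the 3 highest and the 2 with the largest log2 ratio of each list, the 10 genes most like the AP-1 sum per library and the 3 most like each member. Tmsb4x, mt-Atp6, C1qa, C1qb, Fosl1, Hlf and Map2k6, and the values of single genes outside that rule, were picked with their values in view. Some results of single genes under this rule are not reported here.

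Values were computed with Python 3.11.15, NumPy 2.4.6, SciPy 1.17.1 and pandas 2.3.3. Kept cells had 200 or more genes and no more than 20% mitochondrial UMIs. No doublet caller was run, and an alternative leaves out the 5% of cells with most UMIs. UMIs were summed per library and divided by all UMIs of the kept cells to give CPM. Folds use CPM as they are, and log2 ratios add 10 CPM, which understates the change of scarce genes. A gene counted as more than 2-fold lower when its log2 ratio was below -1. Depth was 25766058 and 20282053 UMIs in kept cells, and intervals are exact 95% Poisson intervals of counting error only. For correlations each cell was thinned to 2000 UMIs, and the counting variance and the negative covariance that sampling a fixed total brings were subtracted, a step tested on simulated data. All 36 pairs of members were planned, but the correction was used for the 15 with enough counts in both libraries. The designed EAE against healthy comparison was not made, because the suffixes could not be mapped. Alternatives were other cell filters, totals, scalings, pseudocounts, thinned depths and correlation measures.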

Additional observations from a re-analysis of the deposited data

How the results depend on the processing

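The direction of every member's log2 ratio was the same under all 8 alternatives, and 7 of the 9 genes stayed more than 2-fold lower in library 2 in each. With genes of at least 1 UMI tested in place of 20, the background of genes more than 2-fold lower was 1.35% of 19758. The genes this added were too scarce to be called, and 267 genes were called lower either way. The AP-1 shares of library 1 and library 2 and the log2 ratio of their sum, -1.75 as reported, were 4.05%, 1.21% and -1.74 under a filter of 500 or more genes and no more than 10% mitochondrial UMIs. They were 3.95%, 1.14% and -1.79 over all barcodes, 4.10%, 1.27% and -1.69 in cells with at least 5 of 7 microglia markers, and 4.12%, 1.21% and -1.76 without the 5% of cells with most UMIs. Totals without mitochondrial, ribosomal and haemoglobin genes gave 4.43%, 1.43% and -1.63. The ratio was -1.79 with median ratio scaling, and -1.74 as the mean of per-cell shares. The median pair coefficients, 0.34 and 0.53 as reported, were 0.32 and 0.52 with the stricter filter, 0.35 and 0.55 over all barcodes, 0.31 in microglia-marked cells of library 1, and 0.32 and 0.52 without the deepest cells. They were 0.35 and 0.52 at 1000 UMIs, 0.31 and 0.49 at 4000 UMIs, 0.41 and 0.60 on log-normalised counts, 0.29 and 0.41 with counting noise left in, and 0.35 and 0.55 without cells with at least 3 Fscn1 UMIs, the last chosen after seeing the data. The cause of these shifts was not tested. No paired analysis was possible because each side is 1 library. Depth limits Fosl2, Batf and, in library 2, Maff, for which co-variation was not measurable at 2000 UMIs.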

Other observations

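Cells picked for 1 member carried different neighbours. The 326 cells of library 1 with most Junb had 2.04 times the mean Gadd45b of all cells, 1.94 times the Nfkbiz and 1.68 times the Il1a, which codes for interleukin-1 alpha, whereas the 326 cells with most Fos had 0.76, 0.98 and 0.54 times. The cells with most Fos had 1.99 times the mean Dusp1 and 1.86 times the Klf4, against 0.97 and 1.12 times in those with most Junb. The cells with most Atf3 had 1.79 times the mean Ccl4, against 1.13 times in the cells with most Fos. In library 2 the 190 cells with most Junb and the 190 with most Fos lay closer together for most of these genes: 1.56 and 1.53 times for Il1a, 1.86 and 1.56 times for Nfkbiz, 1.58 and 1.99 times for Klf4 and 1.65 and 2.12 times for Dusp1. Gadd45b stood at 1.91 and 0.91 times there, from a mean of only 0.10 UMI per thinned cell. These genes were chosen for display after the data had been seen, and the differences carry no test.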
